A study of Homo sapiens with 8 samples.

Results

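The genes of MHC class I and its peptide loading were followed in SEM, a KMT2A-rearranged line of human B-cell acute lymphoblastic leukemia engineered for CTCF degradation (CTCF AID2), before and after the cells became resistant to auxin-induced degradation of CTCF. The members were the 9 protein-coding rows of the expression table with the symbols HLA-B, HLA-C, HLA-E, HLA-F, B2M, TAP1, TAP2, TAPBP and NLRC5, out of 60754 rows in all, of which 20004 were protein-coding. All 9 passed the filter on low values, a TPM (a gene's length-corrected share of the transcripts in a library) of 1 or more in any library, which 15614 rows passed. In every group both CTCF alleles carried a miniAID-mClover3 tag at the 3′ end, and a lentiviral cassette with the MND promoter expressed an OsTIR1 variant together with Zeocin resistance. The clones labelled C17.2 and C3.2 each descend from 1 sorted cell, so each stands for 1 clone. Parental cells were untreated, and resistant cells had been cultured until day 36 with 1 µM 5-Ph-IAA, the auxin analog, and 100 µg/ml Zeocin, after which both drugs were withdrawn. The study describes the resistant cells of C3.2 as carrying a missense change in the miniAID tag with full-length CTCF, and those of C17.2 as expressing CTCF truncated at the C terminus. It also reports that tagged full-length CTCF returned in resistant C17.2 cells once the drugs were withdrawn, beside the truncated form. Each of the 4 groups had 2 libraries, 8 in all, made from total RNA after ribosomal RNA depletion. The labels do not say whether the 2 libraries of a group came from separate cultures, so the p-values measure the spread between these libraries, which may be technical.

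MHC class I molecules display peptides from inside the cell to CD8+ T cells. Each consists of a heavy chain (here HLA-B, HLA-C, HLA-E and HLA-F) and the invariant light chain B2M, and is filled in the endoplasmic reticulum, where the transporter TAP1 and TAP2 delivers peptides that proteasomes have cut and tapasin, the product of TAPBP, holds the empty molecule next to the transporter. NLRC5 is the transactivator of class I genes, which acts with the RFX, CREB/ATF and NF-Y proteins on their promoters. In B-lineage leukemia, class I on the cell surface is what T cells recognize and what inhibits natural killer cells.

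Every library had the B-lineage pattern of its label. Of 10 B-lineage and leukemia markers, 9 reached a TPM of 1, with a summed TPM of 675 to 891, and the exception was DNTT. Single markers changed with resistance. The mean TPM of IGLL1 went from 85.1 to 20.3 in C17.2 and from 154 to 30.8 in C3.2. That of CD79B went from 13.3 to 4.47 and from 15.3 to 7.39. CD79A was also lower in the resistant libraries of both clones, and PAX5 and MEIS1 were higher in both. All 5 T-cell markers stayed under a TPM of 1, with CD3D at 0 in every library, and the summed TPM of 4 monocyte markers was 2.12 to 3.93. The summed TPM of 4 NK-cell markers was 9.73 to 11.9 in parental and 17.6 to 17.8 in resistant cells of C17.2, against 8.34 to 8.78 and 9.38 to 10.8 in C3.2, and its part in the results below was not tested. Changes below are the mean log2(scaled TPM + 1) of resistant minus that of parental cells, ± SE, tested with limma over all genes after scaling the libraries to each other. CTCF mRNA was higher in resistant cells of both clones, by 0.44 ± 0.04 (SE) on the log2 scale in C17.2 and by 0.34 ± 0.04 in C3.2 (limma adjusted p = 0.000795 and 0.0068). Protein-coding genes took 36.0% to 43.3% of TPM, and the factors that scaled the libraries to each other ran from 0.893 to 1.16, highest in the resistant cells of C17.2, at 1.12 and 1.16.

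Short elements known from class I promoters were searched for in these genes, and not every gene held each element. Of the 5 genes printed, HLA-B, HLA-C, HLA-F and TAP1 fell in C17.2 and B2M did not pass the test. Whether the elements had a part in these changes was not tested. RefSeq promoter entries (GRCh38.p14) were matched for 7 of the 9 genes, and HLA-E and NLRC5 had none. The stretches printed are 5′ to 3′ on the strand of the gene. They lie within the 250 bases before the RefSeq start and leave out bases that Gencode release 44 annotates as UTR. Capitals mark matches, on either strand, to the core of the interferon regulatory factor element (AANNGAAA), the X2 box (TGACGC), the Y box (ATTGG) and an NF-κB site (GGGGATTCC), some of which overlap or adjoin.
HLA-B, chr6:31357294-31357429 (-): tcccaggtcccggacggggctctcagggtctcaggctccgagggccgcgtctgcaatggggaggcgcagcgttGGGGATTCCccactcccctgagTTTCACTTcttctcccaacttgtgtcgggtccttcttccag
HLA-C, chr6:31272106-31272342 (-): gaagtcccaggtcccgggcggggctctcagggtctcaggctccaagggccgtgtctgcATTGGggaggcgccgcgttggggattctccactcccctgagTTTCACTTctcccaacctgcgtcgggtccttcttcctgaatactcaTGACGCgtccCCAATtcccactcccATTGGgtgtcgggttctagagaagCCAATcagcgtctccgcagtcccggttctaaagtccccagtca
HLA-F, chr6:29723184-29723305 (+): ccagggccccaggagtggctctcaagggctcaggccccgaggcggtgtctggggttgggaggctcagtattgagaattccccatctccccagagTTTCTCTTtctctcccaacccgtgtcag
B2M, chr15:44711324-44711508 (+): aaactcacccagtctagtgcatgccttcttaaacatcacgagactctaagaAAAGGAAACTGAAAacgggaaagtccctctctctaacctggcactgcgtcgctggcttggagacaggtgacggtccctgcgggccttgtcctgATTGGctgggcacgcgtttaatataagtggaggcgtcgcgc
TAP1, chr6:32853817-32853954 (-): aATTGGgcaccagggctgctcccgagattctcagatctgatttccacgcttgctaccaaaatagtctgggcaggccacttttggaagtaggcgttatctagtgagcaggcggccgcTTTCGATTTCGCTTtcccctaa
Over the whole 250 bases, the interferon regulatory factor core was found in all 7 of these genes (HLA-B, HLA-C, HLA-F, B2M, TAP1, TAP2 and TAPBP), compared with 20.3% of 35116 promoters. The X2 box was found in HLA-B, HLA-C and TAP2 (7.67% of promoters), the Y box in HLA-B, HLA-C, HLA-F, B2M and TAP1 (32.01%), and the exact NF-κB site in HLA-B alone among the 7 (0.253%). TAP1 had a second promoter entry, which held none of these elements. A match says only that these letters are in the window.

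Heavy chain mRNA fell in resistant cells of C17.2. HLA-E, the non-classical heavy chain that presents leader peptides of other class I molecules, had a TPM of 129.6 and 121 in parental cells and of 90.9 and 87.6 in resistant cells of C17.2. The groups did not overlap, and the resistant cells were lower by 0.64 ± 0.04 (SE) on the log2 scale of scaled TPM + 1 (edges of the 95% interval -0.75 and -0.54, limma adjusted p = 0.000263). In C3.2 the TPM of HLA-E was 91.7 and 93.1 in parental and 93.6 and 89.2 in resistant cells. These overlapped, and the fitted change was -0.08 ± 0.04 (adjusted p = 0.289), which turned to 0.04 after quantile normalization and to 0.02 after rescaling to protein-coding genes. In bulk RNA, fewer cells with a transcript and less of it per cell cannot be told apart.

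HLA-B, a classical heavy chain, had a TPM of 227 and 216 in parental and of 195 and 210.3 in resistant cells of C17.2. It was 192 and 201 in parental and 226 and 219.95 in resistant cells of C3.2. The groups did not overlap in either clone and lay in opposite order. HLA-B fell by 0.29 ± 0.04 in C17.2 (adjusted p = 0.00362) and had a fitted change of 0.12 ± 0.04 in C3.2 (adjusted p = 0.126). The call in C17.2 was lost on TPM as deposited (-0.13, adjusted p = 0.160), and HLA-B was called higher in C3.2 after quantile normalization (0.24, adjusted p = 0.0452) and after rescaling to protein-coding genes (0.22, adjusted p = 0.0223).

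HLA-C, the classical heavy chain that is the main ligand of killer-cell immunoglobulin-like receptors, had a TPM of 67.1 and 56.6 in parental and of 55.7 and 57.3 in resistant cells of C17.2, and the groups overlapped. After scaling between libraries they separated, at 63.9 and 57.3 compared with 49.7 and 49.6, and HLA-C fell by 0.28 ± 0.06 (adjusted p = 0.0132). On TPM as deposited it did not pass (-0.12, adjusted p = 0.302). In C3.2 the TPM was 56.8 and 57.1 in parental and 65.6 and 62.3 in resistant cells, higher in both resistant libraries, with a fitted change of 0.10 ± 0.06 (adjusted p = 0.313).

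HLA-F, a non-classical heavy chain of low abundance, had a TPM of 11.5 and 10.3 in parental and of 8.98 and 7.97 in resistant cells of C17.2. It was 10.7 and 10.3 in parental and 8.87 and 9.38 in resistant cells of C3.2. The resistant libraries were the lower ones in both clones. The fall passed the test in C17.2 (-0.47 ± 0.09, adjusted p = 0.00943) and not in C3.2 (-0.25 ± 0.09, adjusted p = 0.127), and neither did the difference between them (-0.23 ± 0.12, adjusted p = 0.296). The call of HLA-F in C17.2 was lost without parental replicate 1 or without resistant replicate 2 of that clone, and that of HLA-C without either resistant replicate 1 or resistant replicate 2 (highest adjusted p = 0.0663 for HLA-F and 0.0674 for HLA-C). HLA heavy chains are near-identical copies of each other over long stretches, and how RSEM divided the reads they share can shift each one.

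**Figure D1:**
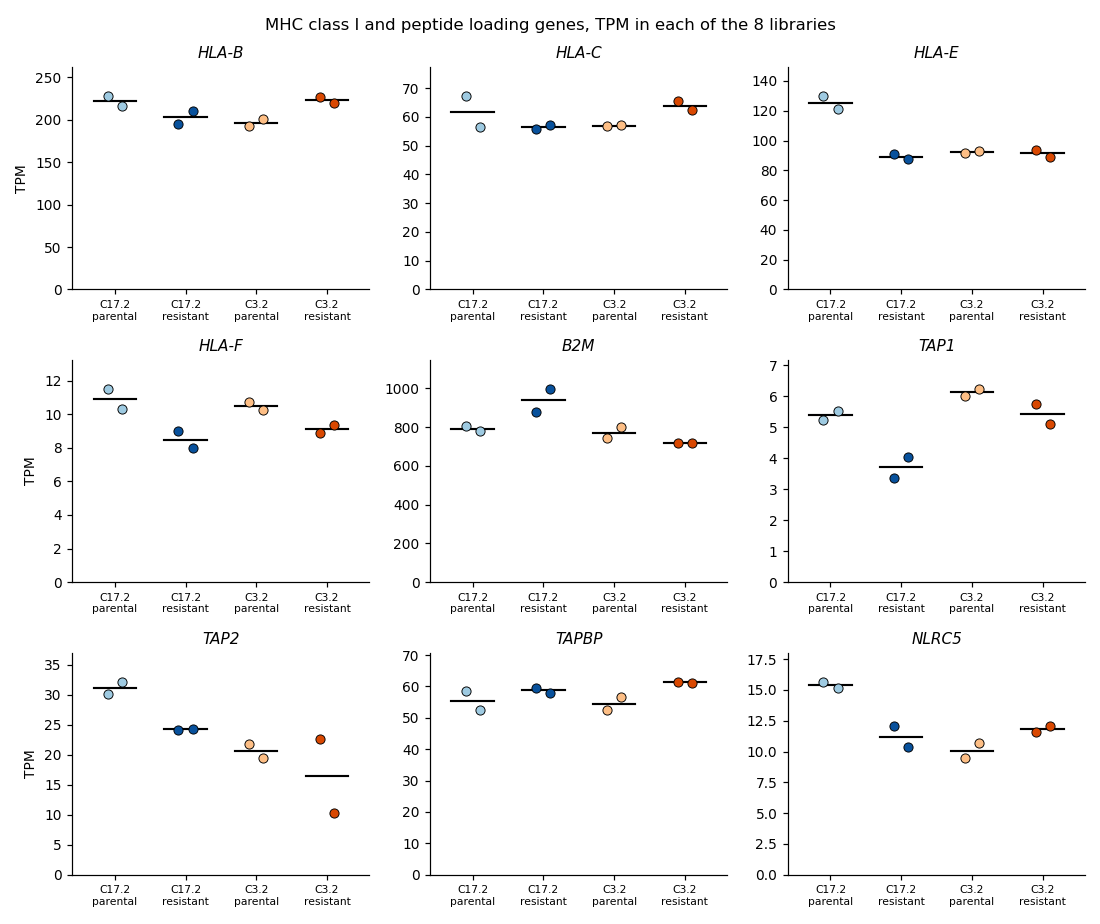
TPM as deposited (vertical axis, from 0, with its own range in each panel) of the 9 genes in parental and resistant cells of C17.2 and C3.2, where each point is 1 library and the bar is the mean of 2. In C17.2 the resistant libraries lie below the parental ones for HLA-B, HLA-E, HLA-F, TAP1, TAP2 and NLRC5 and above them for B2M, and 1 resistant library of C3.2 lies apart for TAP2, at 10.3 compared with 22.7.

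The light chain did not pass the test in either clone. B2M had a TPM of 803 and 779 in parental and of 879 and 996 in resistant cells of C17.2, with both resistant libraries higher. In C3.2 it had a TPM of 741 and 802 in parental and of 717 and 718 in resistant cells, with both resistant libraries lower. Scaling narrowed the first difference until the groups overlapped, and the fitted changes of 0.08 ± 0.06 in C17.2 (95% interval -0.07 to 0.23, adjusted p = 0.391) and -0.17 ± 0.06 in C3.2 (-0.32 to -0.02, adjusted p = 0.142) did not pass the test. After quantile normalization B2M was called higher in C17.2 (0.36, adjusted p = 0.0169).

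TAP1, 1 of the 2 chains of the peptide transporter, had a TPM of 5.24 and 5.53 in parental and of 3.37 and 4.04 in resistant cells of C17.2. Both resistant libraries were lower, and TAP1 fell by 0.57 ± 0.09 (adjusted p = 0.00453). In C3.2 it had a TPM of 6.02 and 6.23 in parental and of 5.75 and 5.09 in resistant cells, which is also lower in both, but the fitted change of -0.21 ± 0.09 did not pass (adjusted p = 0.171). The antisense RNA PSMB8-AS1 overlaps 672 exonic bases of TAP1 and was the more abundant of the pair, with a TPM of 15.1 and 14.9 in parental and of 12.1 and 12.5 in resistant cells of C17.2 and 12.5 to 14.4 in C3.2. Whether counting used the strand is not given in the sources used here, so reads of the pair cannot be told apart with certainty.

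TAP2 had a TPM of 30.1 and 32.2 in parental and of 24.2 and 24.2 in resistant cells of C17.2. It had 21.8 and 19.5 in parental cells of C3.2, but 22.7 and 10.3 in the resistant cells of that clone, so that 1 library stood apart. This spread entered the shared estimate of error, and TAP2 did not pass in C17.2 (-0.51 ± 0.29, adjusted p = 0.251), although its groups there did not overlap. Without C3.2 resistant replicate 1 it was called in C17.2 (adjusted p = 0.0122), and so it was without replicate 2 (0.0128) and in a fit of C17.2 by itself (-0.51, adjusted p = 0.0136). In C3.2 the value rested on which resistant library was kept, with -0.96 without replicate 1 (adjusted p = 0.00974) and 0.03 without replicate 2 (adjusted p = 0.907).

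TAPBP, which encodes tapasin, had a TPM of 58.6 and 52.4 in parental and of 59.6 and 58.1 in resistant cells of C17.2, and 52.4 and 56.7 compared with 61.5 and 61.0 in C3.2. It overlapped in C17.2 and was higher in both resistant libraries of C3.2. Neither change passed, at -0.07 ± 0.05 in C17.2 (adjusted p = 0.352; positive on TPM as deposited, 0.08, and after rescaling to protein-coding genes, 0.01) and 0.10 ± 0.05 in C3.2 (adjusted p = 0.272).

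NLRC5, the transactivator, had a TPM of 15.7 and 15.2 in parental and of 12.0 and 10.4 in resistant cells of C17.2. In C3.2 it had 9.48 and 10.7 in parental and 11.6 and 12.1 in resistant cells. The groups did not overlap in either clone and lay in opposite order. NLRC5 fell by 0.58 ± 0.09 in C17.2 (adjusted p = 0.00592), and its change in C3.2 was 0.15 ± 0.09 (adjusted p = 0.346). The change in C17.2 minus that in C3.2 was -0.73 ± 0.13 (adjusted p = 0.0222). With 1 library left out this call held only without C17.2 resistant replicate 1 or C3.2 resistant replicate 1, and the adjusted p reached 0.0918 otherwise.

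Counted together, 6 of 9 genes fell in resistant cells of C17.2 (HLA-B, HLA-C, HLA-E, HLA-F, TAP1 and NLRC5) and none rose. Among all 15614 genes tested, 27.3% were called in this clone, 13.4% higher and 13.9% lower. The median log2 change was -0.47 over the 9 genes and 0.00 over all genes. In C3.2, 0 of 9 passed limma with an adjusted p under 0.05, while 4 had an unadjusted p under 0.05 (HLA-B on the higher side and HLA-F, B2M and TAP1 on the lower). The background there was 11.4% of genes called, 4.46% higher and 6.9% lower, and the median over the 9 genes was -0.08. The change itself differed between the clones for HLA-B (-0.41 ± 0.06, adjusted p = 0.0104), HLA-C (-0.38 ± 0.08, 0.0349), HLA-E (-0.56 ± 0.06, 0.00479) and NLRC5, 4 of 9, compared with 9.91% of all genes. HLA-E kept this call in all 8 fits with 1 library left out. HLA-B kept it in 6, the exceptions being C17.2 parental replicate 2 and C3.2 parental replicate 1 (highest adjusted p = 0.0538), NLRC5 kept it in 2, and HLA-C kept it only without C17.2 parental replicate 2 (highest adjusted p = 0.113). Without C3.2 resistant replicate 2, the library with low TAP2, 7 genes were called in C17.2, 0 in C3.2 and 2 in the difference. For HLA-F, B2M, TAP1, TAP2 and TAPBP the difference did not pass, with intervals that ran from -0.65 to -0.07 for TAP1 and from 0.04 to 0.47 for B2M before adjustment.

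How many genes rose or fell in all depended on the scaling. Of the calls in C17.2, 49.1% were higher in resistant cells, compared with 75.1% on TPM as deposited, which moved the median of all genes by 0.13 on the log2 scale, and 64.5% after rescaling to protein-coding genes. In C3.2 the share was 39.3%, compared with 57.8%, 70.1% and, after quantile normalization, 50.8%. For the difference it was 49.6%, and 64.0% on TPM as deposited. HLA-E, HLA-F, TAP1 and NLRC5 passed in C17.2 under all 3 of these scalings.

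**Figure D2:**
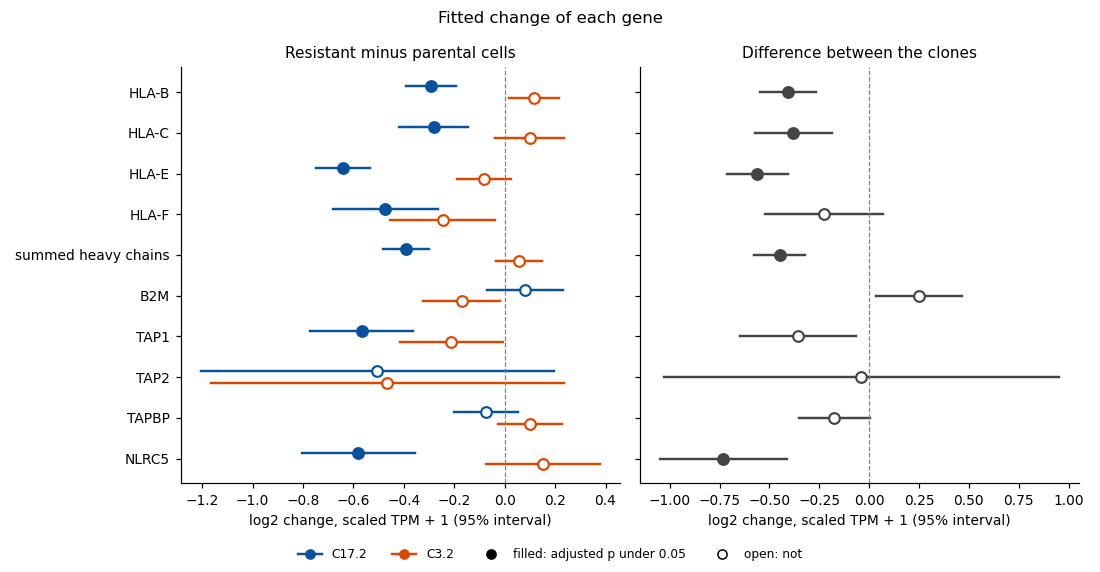
Fitted log2 change of scaled TPM + 1 (horizontal axis) with its 95% interval before adjustment for the 9 genes and the summed heavy chains, resistant minus parental cells in each clone (left) and the change in C17.2 minus that in C3.2 (right), with filled points where the adjusted p was under 0.05. In C17.2 the filled points run from -0.64 (HLA-E) to -0.28 (HLA-C), no gene is filled in C3.2, and TAP2 has the widest intervals.

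Summing the heavy chain rows leaves out how reads were divided among them. The sum took HLA-B, HLA-C, HLA-E and HLA-F with 13 other class I rows, mostly pseudogenes, none above a TPM of 1.08, so that the 4 genes made up nearly all of it. Class I genes outside these rows were not added. The 4 genes summed to a TPM of 436 and 404 in parental and 350.3 and 363 in resistant cells of C17.2, and to 351 and 361 in parental and 394 and 381 in resistant cells of C3.2. The groups separated in both clones, in opposite order. The sum of all 17 rows fell by 0.39 ± 0.04 in C17.2 (adjusted p = 0.00084), changed by 0.06 ± 0.04 in C3.2 (adjusted p = 0.379), and the clones differed by -0.45 ± 0.05 (adjusted p = 0.00557). The difference did not pass on TPM as deposited (-0.35, adjusted p = 0.0596), and the sum was called higher in C3.2 after quantile normalization (0.22, adjusted p = 0.0486) and after rescaling to protein-coding genes (0.16, adjusted p = 0.04).

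A ratio within a library does not depend on scaling. The TPM of B2M divided by the summed TPM of HLA-B, HLA-C, HLA-E and HLA-F was 1.84 and 1.93 in parental cells of C17.2 and 2.51 and 2.74 in its resistant cells. It was 2.11 and 2.22 in parental and 1.82 and 1.88 in resistant cells of C3.2. The ratio was higher in resistant cells of C17.2 and lower in those of C3.2, with no overlap in either, and the mean changes were 0.48 and -0.23 on the log2 scale. This ratio was chosen after the values were seen and is given with no test.

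**Figure D3:**
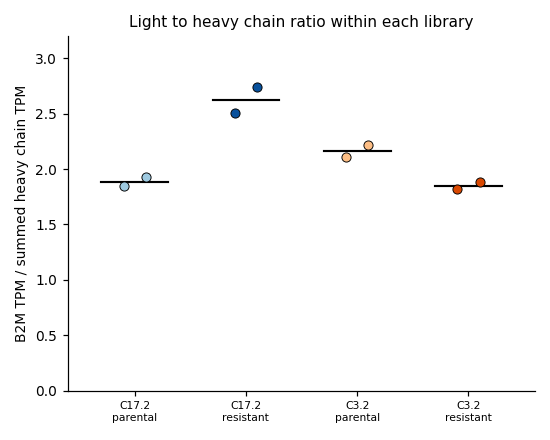
Ratio of B2M TPM to the summed TPM of HLA-B, HLA-C, HLA-E and HLA-F (vertical axis, no unit, from 0), where each point is 1 library and the bar is the mean of 2. The resistant libraries of C17.2, at 2.51 and 2.74, are the highest of the 8, and those of C3.2, at 1.82 and 1.88, lie below their parental libraries.

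The order of the levels was nearly the same in all groups, on TPM, which is per length. In parental cells of C17.2 it was B2M (791 ± 17.24, SD, n = 2), HLA-B (222 ± 7.77), HLA-E (125 ± 6.14), HLA-C (61.9 ± 7.44), TAPBP (55.5 ± 4.38), TAP2 (31.1 ± 1.44), NLRC5 (15.4 ± 0.339), HLA-F (10.9 ± 0.841) and TAP1 (5.39 ± 0.205), in which HLA-C and TAPBP overlapped. TAPBP and HLA-C changed places in resistant cells of C17.2, and HLA-F and NLRC5, which overlapped, in parental cells of C3.2. In resistant cells of C3.2, TAP2 and NLRC5 overlapped because of the low TAP2 library. In parental cells HLA-E, TAP2 and NLRC5 had means of 125, 31.1 and 15.4 in C17.2 and of 92.4, 20.6 and 10.1 in C3.2. Those levels of the 2 clones were not tested against each other. The column headers give the libraries of each clone their own run of numbers, and what these numbers stand for is not stated. The clone and any difference in library preparation therefore cannot be told apart.

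Of 6 listed chaperone and folding genes of the endoplasmic reticulum (CALR, CANX, PDIA3, TAPBPL, UGGT1 and HSPA5), 4 rose and 1 fell in C17.2. Among all genes, 13.4% were higher and 13.9% lower. The median log2 change of the 6 genes was 0.48. This list is wider than the loading complex itself. Calreticulin (CALR), which holds the glycosylated heavy chain in the loading complex, rose from a TPM of 133 ± 10.6 (SD, n = 2) to 360.2 ± 11.2 (log2 change 1.28 ± 0.04 SE, adjusted p = 2.2e-05). The chaperone HSPA5 rose from 25.8 ± 1.58 to 64.9 ± 2.16 (1.14 ± 0.04, adjusted p = 2.39e-05). The tapasin relative TAPBPL fell from 9.41 ± 0.849 to 7.05 ± 0.544 (-0.51 ± 0.07, adjusted p = 0.00359). In C3.2, HSPA5 rose by 0.26 ± 0.04 (adjusted p = 0.0137), and CANX, the calnexin that binds new heavy chains, fell by 0.20 ± 0.05 (adjusted p = 0.0424). The call of CANX was lost under all 3 other scalings, and that of HSPA5 without parental replicate 1 or parental replicate 2 of C3.2 (highest adjusted p = 0.0887). The changes of 5 of these 6 genes differed between the clones, 4 higher and 1 lower in C17.2, compared with 9.91% of all genes in either direction. Without C17.2 parental replicate 1, C17.2 parental replicate 2 or C3.2 parental replicate 1, 2 of the 5 calls were left, and without C17.2 resistant replicate 1, C17.2 resistant replicate 2 or C3.2 parental replicate 2, 3 were left.

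Of 15 genes of the proteasome and of peptide trimming, 6 were higher and 2 lower in resistant C17.2 cells (median 0.02). Among all genes in that clone, 13.4% were higher and 13.9% lower. The activator subunits PSME3 and PSME2 rose by 0.45 ± 0.04 and 0.40 ± 0.04 (adjusted p = 0.000679 and 0.000993). The aminopeptidases ERAP2 and ERAP1, which trim peptides in the endoplasmic reticulum, fell by 0.38 ± 0.06 and 0.29 ± 0.05 (adjusted p = 0.00679 and 0.00977). Of the immunoproteasome subunits, PSMB8 and PSMB9, encoded next to TAP1, had changes of -0.16 and -0.13 that did not pass (adjusted p = 0.191 and 0.277). The subunit PSMB10 rose by 0.27 ± 0.06 (adjusted p = 0.0204). In C3.2, PSME3 rose by 0.20 ± 0.04 (adjusted p = 0.0267) and ERAP2 fell by 0.35 ± 0.06 (adjusted p = 0.0224), and both calls were lost when any library of that clone was left out (highest adjusted p = 0.137 and 0.117). The call of ERAP1 in C17.2 was lost on TPM as deposited and without parental replicate 1 or resistant replicate 2 of that clone (highest adjusted p = 0.0634).

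Of 17 factors of the class I promoter, 1 rose and 6 fell in C17.2, and 0 rose and 3 fell in C3.2, with medians of -0.04 and 0.03. Among all genes, 13.4% rose and 13.9% fell in C17.2, and 4.46% rose and 6.9% fell in C3.2. IRF1, the interferon regulatory factor that binds the element shown above, fell from a TPM of 42.0 ± 5.197 to 23.3 ± 1.13 in C17.2 (log2 change -0.98 ± 0.08, adjusted p = 0.000501) and from 37.3 ± 0.877 to 28.5 ± 3.08 in C3.2 (-0.45 ± 0.08, adjusted p = 0.0208). The change of IRF1 in C17.2 minus that in C3.2 was -0.53 on the log2 scale (adjusted p = 0.0364). This call was lost on TPM as deposited, with no filter and with no intensity trend. It was also lost in most fits with 1 library left out. RFXAP, a subunit of the RFX complex, fell by 0.65 ± 0.07 in C17.2 (adjusted p = 0.00116) and by 0.39 ± 0.07 in C3.2 (adjusted p = 0.0185). The NF-Y subunit NFYA rose by 0.49 ± 0.05 in C17.2 (adjusted p = 0.00149). The calls of IRF1 and RFXAP in C3.2 were lost on TPM as deposited and without parental replicate 1, parental replicate 2 or resistant replicate 2 of that clone (highest adjusted p = 0.114 and 0.109). On TPM as deposited, 3 factors rose and 2 fell in C17.2.

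Of 18 interferon pathway genes tested, 4 rose and 3 fell in C17.2, and 2 rose and 1 fell in C3.2. The shares over all genes were 13.4% higher and 13.9% lower in C17.2, and 4.46% and 6.9% in C3.2. On TPM as deposited, 9 rose and 3 fell in C17.2. The kinase JAK2 rose by 0.84 ± 0.11 in C17.2 and 0.68 ± 0.11 in C3.2 (adjusted p = 0.00274 and 0.0153), and the guanylate-binding protein GBP2 rose by 0.65 ± 0.14 in C17.2 (adjusted p = 0.0169). IRF7 fell by 0.64 ± 0.10 in C17.2 (adjusted p = 0.00597). BST2, an interferon-induced membrane protein, rose by 0.32 ± 0.05 in C3.2 (adjusted p = 0.0138). The calls of GBP2 (without C17.2 parental replicate 2 or resistant replicate 1), of JAK2 in C3.2 (without parental replicate 2 or resistant replicate 2) and of BST2 (without either of its parental libraries or resistant replicate 2) were lost, with highest adjusted p of 0.0806, 0.0628 and 0.0834. Of the 3 PRC2 genes EZH2, EED and SUZ12, EZH2 had the lowest adjusted p in both clones (-0.29, adjusted p = 0.0531 in C17.2 and -0.32, adjusted p = 0.0635 in C3.2). With the 4 libraries of C17.2 alone, 1 of the 3 was called higher and 1 lower in that clone.

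Of 9 other class I-like genes tested, 1 rose and 3 fell in C17.2, and 1 fell in C3.2. Among all genes, 13.4% were higher and 13.9% lower in C17.2, and 6.9% were lower in C3.2. ULBP1, a ligand of the activating receptor NKG2D, fell from a TPM of 9.66 ± 0.0849 to 2.54 ± 0.170 in C17.2 (-1.70 ± 0.08, adjusted p = 5.54e-05) and from 1.99 ± 0.00707 to 0.505 ± 0.0495 in C3.2 (-1.06 ± 0.08, adjusted p = 0.00119). MICA, another such ligand, rose by 0.58 ± 0.12 in C17.2 (adjusted p = 0.0144), and ULBP3 fell by 0.39 ± 0.10 (adjusted p = 0.0299), calls that were lost when any library of that clone was left out (highest adjusted p = 0.0934 and 0.108). Of 10 class II genes tested, 9 fell and 0 rose in C17.2, compared with 13.9% of all genes lower, and 6 fell on TPM as deposited. In C3.2, 4 rose and 0 fell, compared with 4.46% of all genes higher, but 0 were called without parental replicate 1 or parental replicate 2 of that clone, 2 without its resistant replicate 2, 2 with no filter, 1 with its 4 libraries alone and 9 after rescaling to protein-coding genes. Their changes differed between the clones in 9 of 10 genes, compared with 9.91% of all genes, and in 7 on TPM as deposited. Fewer differed in most fits with 1 library left out.

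**Figure D4:**
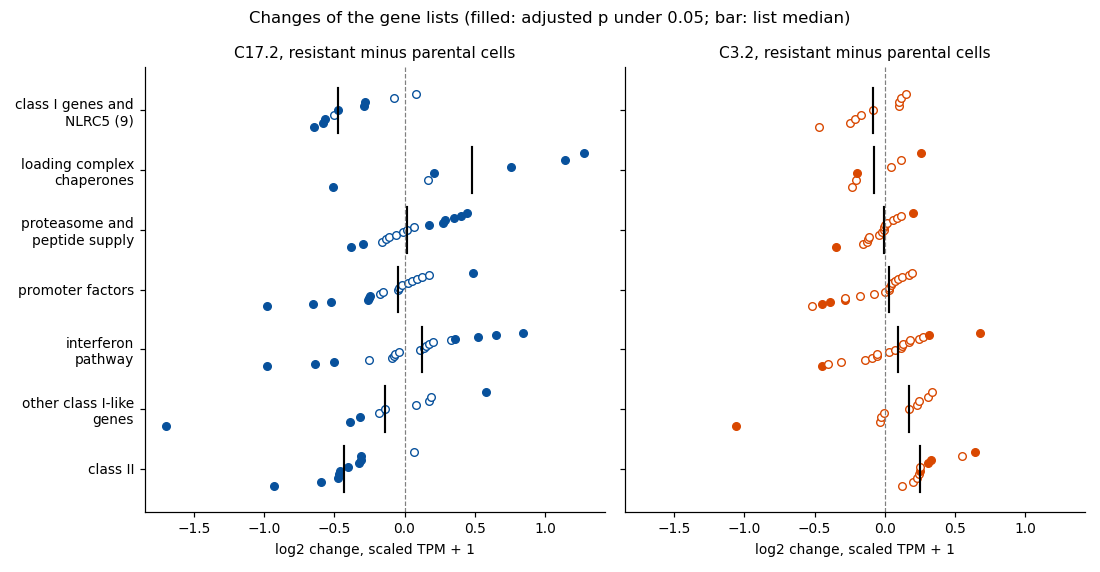
Fitted log2 change of scaled TPM + 1 (horizontal axis), resistant minus parental cells, for each tested gene of 7 lists in C17.2 (left) and C3.2 (right), where filled points had an adjusted p under 0.05 and the bar is the median of the list. In C17.2 the medians are -0.47 for the 9 class I and loading genes, 0.48 for the chaperone and folding genes and -0.43 for class II. They are -0.08, -0.07 and 0.25 in C3.2. The chaperone and folding genes are labelled as loading complex chaperones, a list wider than that complex.

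By position, 7 of the 9 genes lie in the MHC on chromosome 6, between HLA-F (chr6:29722775-29738528) and TAPBP (chr6:33299694-33314284) on GRCh38. B2M lies at chr15:44711358-44718851 and NLRC5 at chr16:56989485-57083531. Between HLA-F and TAPBP, over 3592 kb, 101 other protein-coding genes were tested, of which 24 rose (23.8%) and 17 fell (16.8%) in C17.2, at a median of 0.07, compared with 13.4% and 13.9% of all genes. In C3.2, 13 rose and 2 fell (12.9% and 1.98%), compared with 4.46% and 6.9% of all genes. Of 15 tested protein-coding genes that are the nearest to a member on either side, 2 rose and 7 fell in C17.2, compared with 13.4% and 13.9% of all genes. Next to NLRC5, HERPUD1 fell by 1.88 (adjusted p = 5.42e-05) and CPNE2 fell by 0.87 (adjusted p = 0.00133) in that clone. These 2 neighbors were named after their values were seen.

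HLA-E and NLRC5 had the largest changes past the threshold, and the genes whose levels followed them most closely were sought among 8563 protein-coding genes with a mean TPM of at least 5, over the 8 libraries centered on their clone. For HLA-E these were EIF1, HIST1H3H and TNFRSF13C (Pearson r = 0.999, 0.998 and 0.997). All 3 had larger changes in C17.2 than HLA-E, at -1.15, -1.69 and -1.37 on the log2 scale, and -0.15, -0.26 and -0.13 in C3.2. For NLRC5 they were STK40, KPNB1 and SBF1 (r = 0.984, 0.982 and 0.979), with changes of -0.37, -0.21 and -0.35 in C17.2 and 0.08, 0.07 and 0.09 in C3.2. With 2 libraries a group, these values mostly restate the group means that the points share, and they are given as a description.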

How the data were processed

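RNA-seq libraries of parental and resistant cells of clones C17.2 and C3.2 (4 groups, 2 libraries each, assigned from the clone label, with replicates numbered in the order of deposit) were analyzed. The deposited TPM were made by the authors with RSEM 1.3.1 on Gencode genes, from reads that TrimGalore 0.6.3 had trimmed and STAR 2.7.9a had placed on GRCh38.p13. TPM is a share per length that keeps no depth, so the depth of the libraries is unknown. The methods and the labels differ on whether reads were paired. The study's limma-voom test needs counts and was not repeated.

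From the deposited TPM, rows that reached a TPM of 1 in any library were kept, libraries were scaled to their mean by trimmed log2 ratios (30% of ratios and 5% of means trimmed), and log2(scaled TPM + 1) was fitted in limma 3.58.1 (R 4.3.3) with an intensity trend and 4 groups. P-values were two-sided and adjusted by Benjamini-Hochberg over all 15614 genes, with a threshold of 0.05. A pseudocount of 1 understates changes of low genes. With 2 libraries against 2, the smallest exact permutation p is 0.333. On simulated data with 200 genes changed by 1 on the log2 scale in C17.2, the fit recovered 84.5% over 15614 genes. Of its calls, 6.63% were false. The 6 members called in C17.2 had smaller changes, from -0.64 to -0.28, and 4261 genes were called there. The simulated rates therefore need not hold for these data. Alternatives changed the scaling, pseudocount, filter, trend, libraries fitted and each library in turn. From each list, at most 2 genes per direction and clone were named by size, with a mean TPM of at least 1. PSMB8, PSMB9, PSMB10 and EZH2 were named outside this rule after their values were seen. The members and lists were chosen with earlier results of these data known. Positions were from Gencode release 44.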

Additional observations from a re-analysis of the deposited data

Results flagged for a closer look

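The response to resistance differed between the clones for 4 of the 9 genes, compared with 9.91% of all genes. The change in C17.2 minus that in C3.2, by limma over all genes, was -0.41 on the log2 scale for HLA-B, -0.38 for HLA-C, -0.56 for HLA-E and -0.73 for NLRC5 (adjusted p = 0.0104, 0.0349, 0.00479 and 0.0222). For the summed heavy chains it was -0.45 (adjusted p = 0.00557). The calls of HLA-C and NLRC5 for this difference were lost in most fits with 1 library left out. HLA-B, HLA-C and NLRC5 were lower in resistant cells of C17.2 and had values above 0 without a call in C3.2.

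The log2 change of the ratio of B2M to the heavy chains was 0.70 higher in C17.2 than in C3.2, since both resistant libraries of C17.2 moved up and both of C3.2 moved down from their parental libraries. This difference was not tested, because the ratio was chosen after the values were seen.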

How the results depend on the processing

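Each group has 2 libraries, the clone and any difference in library preparation cannot be told apart, and an unknown depth gives no counting error. No paired analysis was possible because the labels give the libraries of a group no replicate number. In C17.2, 6 genes were called. Over the alternatives with 2 libraries in each group, 4 to 7 were called, with 4 on TPM as deposited. Where 7 were called, B2M or TAP2 was added to the 6. HLA-C and HLA-F also lost their calls in some fits with 1 library left out. In C3.2, 0 were called, but 1 after quantile normalization (HLA-B), 1 after rescaling to protein-coding genes (HLA-B) and 0 to 1 with 1 library left out. For the difference, 4 were called, 2 on TPM as deposited, 2 with no filter and 1 to 3 with 1 library left out. The summed heavy chains kept their call in C17.2 under all alternatives, the difference did not on TPM as deposited (-0.35), and in C3.2 they were called after quantile normalization (0.22) and rescaling to protein-coding genes (0.16). Values without a call changed sign for HLA-E in C3.2 (0.038 after quantile normalization and 0.0209 after rescaling to protein-coding genes), for TAPBP in C17.2 (0.085 on TPM as deposited and 0.00984 after rescaling), for TAP2 in C3.2 (-0.96 to 0.0325 with 1 library left out) and for the difference in TAP2 (0.0486 on TPM as deposited; -0.54 to 0.46 with 1 library left out). The cause of these shifts was not tested. Over all genes, the 4261 calls in C17.2 fell to 2398 at the lowest with 1 library left out, the 1773 in C3.2 to 343 (386 with the 4 libraries of the clone alone and 1167 with no filter), and the 1548 in the difference to 561.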
